A study of Mus musculus with 11 samples.

Results

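The 241 members of the large odorant receptor (OR) cluster of mouse chromosome 2 were examined in the main olfactory epithelium (MOE), the nasal tissue that holds the olfactory sensory neurons (OSNs). Members were taken by symbol alone, as Olfr followed by a number alone, from Olfr987 to Olfr1317, and 5 suffixed symbols with a number in that range were left out. They were 241 of the 1125 Olfr symbols in a table of 24421 entries, which left 884 other OR genes for comparison. The rule itself uses no measured value, but it was set with earlier results of these data known.

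RNA-seq libraries were made from whole MOE of mice in which the gene cluster from Taar2 to Taar9, a separate family of olfactory receptors on another chromosome, was present in both copies (wild type, n = 3), had lost 1 copy (heterozygous, n = 4) or had lost both (homozygous, n = 4). The labels give the strain of all 11 mice as C57BL/6 and their age as postnatal day 1 to 2, whereas the reporting summary of the paper describes older mice of a background mixed with 129 for this line. Which description holds was not settled, and the labels give no litter, sex or library date. Nothing in the labels says that the libraries of a group came from separate animals, so p-values measure only the spread between these libraries, which may be technical. Values of single libraries are given in the order of their replicate numbers. The sums over the 14 olfactory Taar genes, which check the genotypes, were 87 to 119 counts in the wild-type libraries, 31 to 96 in the heterozygous and 1 to 3 in the homozygous ones.

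OR genes encode the G protein-coupled receptors with which OSNs detect odorants. They lie in clusters on many chromosomes, the coding region is usually a single uninterrupted exon, and each mature OSN transcribes a single allele of a single OR gene. In RNA of the whole tissue, the level of an OR gene therefore depends on how many OSNs chose it and on how much transcript each of them holds, and these cannot be told apart here. ORs fall into class I, resembling receptors of fish, and class II, which is the larger class, and the chromosome 2 genes described here are class II ORs.

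The symbols did not mark a single stretch of DNA. All 241 genes lay on chromosome 2 (GRCm38, the mm10 assembly), but in 2 blocks that were 20937.519 kb apart. The first block held 206 members from Olfr987 to Olfr1272 at chr2:85330779-90292841, with 72 on the plus and 132 on the minus strand by the GENCODE models. The second held 35 members from Olfr1275 to Olfr1317 at chr2:111230360-112144054, with 14 on the plus and 21 on the minus strand. The range of numbers did not close off the OR genes of this region. Olfr986, the next number down, is on chromosome 9, but Olfr1318, the next number up, starts 10.143 kb beyond the last member. In all, 20 other Olfr symbols lay inside these blocks or within 1 Mb of them. GENCODE held models for 239 members, and Olfr1182 and Olfr1213 were placed with RefSeq. Of the members, 240 were annotated as protein coding and 1, Olfr1010, as a polymorphic pseudogene.

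Coding sequences were compared because they bear on whether a read can be assigned to 1 member. The median exon length was 2885 bases over 239 members, so that untranslated sequence was not compared. Among 238 members with a coding sequence, of 912 to 1041 bases with the stop codon (median 939), the median identity to the closest other gene was 85.6%. For 221 of them that closest gene was another member, and 51 members were over 95% identical to it. The closest members of the cluster were Olfr1049 (chr2:86254357-86258328) and Olfr1051 (chr2:86273814-86279088), both on the minus strand, with 98.7% identity and 12 differing bases of 927. Bases 482 to 601 of their coding sequences follow, with the 4 differing bases of this stretch in capitals.
Olfr1049: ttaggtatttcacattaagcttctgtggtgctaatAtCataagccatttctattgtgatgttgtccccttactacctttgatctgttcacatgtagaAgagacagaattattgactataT
Olfr1051: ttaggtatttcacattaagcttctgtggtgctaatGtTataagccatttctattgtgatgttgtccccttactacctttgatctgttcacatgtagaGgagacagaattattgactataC
Olfr1080, chosen for its heterozygous level given later, and Olfr1082 had 98.1% identity and 18 differing bases of 942. The pair was picked with the values already seen. Bases 719 to 838 follow, with 7 differing bases in capitals.
Olfr1080: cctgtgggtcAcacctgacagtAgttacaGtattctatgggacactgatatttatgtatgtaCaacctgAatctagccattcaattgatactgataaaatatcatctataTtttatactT
Olfr1082: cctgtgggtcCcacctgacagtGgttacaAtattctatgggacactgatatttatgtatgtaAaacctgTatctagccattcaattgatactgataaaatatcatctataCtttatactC
A read that falls between the capitals fits both genes of a pair. Over the whole coding sequence, 51% of the 51-base stretches of Olfr1049 and 51.1% of those of Olfr1080 occurred in no other OR gene, against a median of 98.5% over all 238 sequences and a lowest value of 45%. How reads with several positions were counted is not given in the sources used here, so counts of such members are uncertain, while sums over the cluster depend less on how they were divided between its members. The 51 members above 95% identity had a median of 64 counts over the 11 libraries and the other 187 had 74. The annotation named an overlapping gene on the same strand for 6 members and an antisense one for 2, and none of the members named by the rule was among them. Olfr1270, among the members of low p, overlaps an antisense gene.

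Promoters were looked at next, as members of a cluster are often described as sharing control elements. RefSeq windows (GRCm38.p6) were found for 200 members, but in 147 of the 202 windows the annotated start was a start codon, so that most windows hold no mapped promoter. The start lay within 100 bases of a GENCODE 5′ end for 29 members. The 250 bases before the start are shown for Olfr1213, a leading member with an untranslated first part in RefSeq, and for Olfr1006, Olfr1110 and Olfr1080, the named members with such a start. Olfr1264, the member of highest level, has a start codon as its RefSeq start and no window shown. All are on the minus strand and are written 5′ to 3′, with matches to a motif in capitals.
Olfr1213 chr2:88980268-88980517: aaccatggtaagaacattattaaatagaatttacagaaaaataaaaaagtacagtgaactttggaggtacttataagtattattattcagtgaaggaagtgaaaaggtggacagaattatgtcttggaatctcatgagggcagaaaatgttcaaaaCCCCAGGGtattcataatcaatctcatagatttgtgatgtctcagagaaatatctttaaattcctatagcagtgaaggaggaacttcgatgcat
Olfr1006 chr2:85678742-85678991: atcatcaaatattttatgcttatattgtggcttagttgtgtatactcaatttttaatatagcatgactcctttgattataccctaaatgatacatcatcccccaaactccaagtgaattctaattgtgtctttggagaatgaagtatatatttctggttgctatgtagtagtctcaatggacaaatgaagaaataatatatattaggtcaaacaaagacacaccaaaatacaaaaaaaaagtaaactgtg
Olfr1110 chr2:87140234-87140483: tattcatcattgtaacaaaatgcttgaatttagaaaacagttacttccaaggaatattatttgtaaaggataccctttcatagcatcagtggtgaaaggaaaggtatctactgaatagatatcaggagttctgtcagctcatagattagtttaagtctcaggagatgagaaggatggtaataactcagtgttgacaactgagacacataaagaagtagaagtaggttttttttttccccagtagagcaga
Olfr1080 chr2:86558139-86558388: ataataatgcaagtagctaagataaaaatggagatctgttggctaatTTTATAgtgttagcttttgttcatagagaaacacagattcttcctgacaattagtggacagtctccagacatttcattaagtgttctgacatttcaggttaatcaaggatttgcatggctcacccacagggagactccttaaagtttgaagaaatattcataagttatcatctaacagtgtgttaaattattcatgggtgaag
CCCNNGGG, the core of the site bound by Ebf proteins, was found for Olfr1213, TATAAA on the other strand for Olfr1080, and none of the searched motifs for Olfr1006 or Olfr1110. A window with at least 1 match on either strand was counted, also where matches of different motifs shared bases. TAATTA, the core of a homeodomain site such as that of Lhx2, was in 34.5% of the 29 member windows with a supported start, in 16.0% of 119 such windows of other OR genes and in 3.96% of 15024 such windows of all genes. TATAAA was in 41.4%, 29.4% and 11.1%, and CCCNNGGG in 10.3%, 10.9% and 13.5%. These are counts of letters in short windows, and a match is not a bound site.

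Members were transcribed at low levels, and nearly all of them were detected. The median member had a total of 71 counts over the 11 libraries, and 240 of 241 had at least 1. Olfr1061 had 0 counts in every library, and 6 members had 1 to 10 counts in all. The 4 haemoglobin genes looked up as markers of red blood cells were also at 0 in all 11 libraries, so that a 0 in this table need not mean that a gene was silent. In all 11 libraries at least 1 count was found for 176 members (73.0%), the same share as for the other OR genes, 645 of 884 (73.0%). Totals above 100 counts were less frequent among members, 80 of 241 (33.2%) against 388 of 884 (43.9%). This difference is given as a description, without a test. The mean level of a member over the libraries ranged from 0.0 to 7.88 CPM (counts scaled to a common library size, here after TMM, which corrects the sizes for differences in composition), with a median of 0.56 and quartiles at 0.32 and 0.93. At a level of up to 1 CPM were 185 members, and 16 exceeded 2 CPM.

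The counts were spread over many members and were led by a few. In total, 25074 counts fell on the cluster and 121225 on the other OR genes. The 10 leading members took 21.1% of the cluster counts and the 2 leading ones 7.93%, and 45 members together reached 50% of them. Block 1 held 89.8% of the counts and all 10 leading members, and the median total was 75 counts in block 1 and 51 in block 2. Of the 50 OR genes of highest mean CPM in the whole table, 6 were members.

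**Figure D1:**
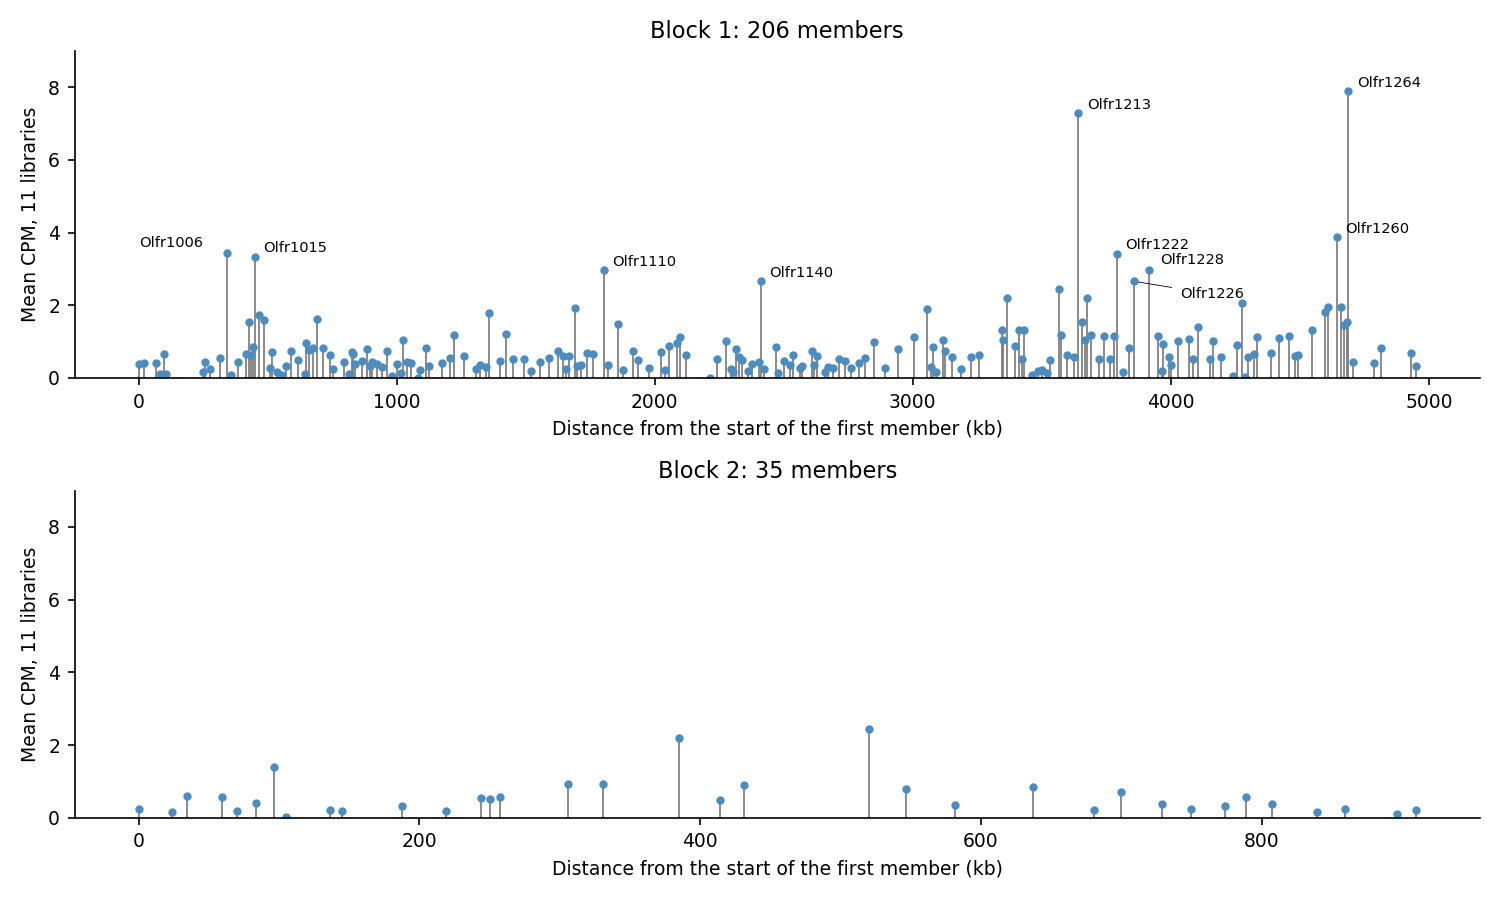
Mean level (CPM over 11 libraries, y axis) of each of the 241 members by its distance in kb from the start of the first member of its block (x axis, not the same scale in both panels). The 10 leading members are named and all lie in block 1, led by Olfr1264 at 7.88 and Olfr1213 at 7.28 CPM, and 185 members lie at or under 1 CPM.

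Olfr1264 (chr2:90018526-90025577, minus strand) had the highest mean level, 7.88 ± 2.83 CPM (SD, n = 11), and ranked 6 among all OR genes. It had 52, 83 and 160 counts in the wild-type, 152, 121, 76 and 39 in the heterozygous and 73, 46, 125 and 125 in the homozygous libraries. The genotypes overlapped throughout, and the mean CPM was 8.13 ± 4.25 in wild type, 7.80 ± 2.76 in heterozygous and 7.77 ± 2.65 in homozygous libraries. In the edgeR fit described below, the homozygous to wild-type log2 fold change was -0.06 (SE 0.40, unadjusted p = 0.88). Its sign turned without some libraries and in some fits, as listed in the closing section.

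Olfr1213 (RefSeq, chr2:88972954-88980267) followed with 7.28 ± 2.21 CPM (SD, n = 11), rank 8 among all OR genes. It had 82, 116 and 100 counts in the wild-type libraries, 77, 101, 105 and 73 in the heterozygous and 118, 51, 81 and 32 in the homozygous ones. The lowest and the highest count were both of homozygous libraries, replicates 4 and 1, so that the widest spread was within that genotype. The homozygous to wild-type log2 fold change was -0.46 (SE 0.35, edgeR unadjusted p = 0.22), and -0.81 without homozygous replicate 1 or -0.22 without homozygous replicate 4.

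The balance of the 2 leading members differed more between libraries than between genotypes. The ratio of Olfr1264 to Olfr1213 counts was 0.63, 0.72 and 1.6 in wild type, 1.97, 1.2, 0.72 and 0.53 in heterozygous and 0.62, 0.90, 1.54 and 3.91 in homozygous libraries. These values ran with a split of the libraries found over all tested genes. The first principal component (41.6% of the variance) parted the libraries into 2 sets. Set 1 held replicates 1 and 2 of wild type and homozygous and replicates 3 and 4 of heterozygous, and set 2 held the remaining 5 libraries, among them replicate 3 as the single wild type. The ratio was 0.53 to 0.90 in set 1 and 1.2 to 3.91 in set 2. Each set holds all 3 genotypes, and what parts the sets is not stated in the labels. Both genes were among the genes that defined the component, so the separation is a description.

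The other leading members were Olfr1260, Olfr1006, Olfr1222, Olfr1015, Olfr1228, Olfr1110, Olfr1140 and Olfr1226, with mean levels of 3.87 down to 2.66 CPM. Only Olfr1264, Olfr1213 and Olfr1006 were among the 10 highest members in all 11 libraries, and 25 different members entered the 10 highest of at least 1 library. Across the 241 members, the order of CPM in 1 library resembled that in another with a Spearman rho of 0.62 to 0.82 (median 0.73 over 55 pairs of libraries). This is a correlation across genes, which share libraries and are not independent replicates. Levels between genes were compared per length with the exon length of the GENCODE models. Per kb of exon, Olfr1006 (2.11 CPM per kb), Olfr1264 (1.83) and Olfr1140 (1.52) led, and 8 of the 10 leading members stayed among the 10 highest. Olfr1213 has no GENCODE model and no such value. The total count of a member and its exon length had a Spearman rho of 0.36 over 239 members, and the annotated exon length ranged from 918 to 15582 bases.

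Olfr1006 (chr2:85673657-85678767, minus strand), the leading member per length, had 54, 43 and 53 counts in wild type, 47, 42, 32 and 30 in heterozygous and 41, 22, 53 and 30 in homozygous libraries. In CPM this was 4.24 ± 0.78, 3.18 ± 0.11 and 3.08 ± 0.71 (SD, n = 3, 4 and 4). Every heterozygous library lay below every wild-type library, with a log2 fold change of -0.41 (SE 0.24, edgeR unadjusted p = 0.12), whereas homozygous replicates 1 and 3 lay within the wild-type range.

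Olfr1110 (chr2:87133673-87140300, minus strand) was the leading member with the lowest p between homozygous and wild type. Its counts were 38, 43 and 59 in wild type, 41, 40, 31 and 31 in heterozygous and 17, 27, 38 and 18 in homozygous libraries, or 3.91 ± 0.74, 3.05 ± 0.23 and 2.18 ± 0.80 CPM. Scaled to library size, every homozygous and every heterozygous library lay below every wild-type library. The log2 fold change was -0.85 between homozygous and wild type (SE 0.30, edgeR unadjusted p = 0.015, adjusted p = 0.996), which did not pass the threshold.

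For the other 6 leading members, the log2 fold change between homozygous and wild type ranged from -0.56 (Olfr1015) to -0.35 (Olfr1226), at edgeR unadjusted p-values of 0.073 to 0.42. Single libraries moved several of these values. Olfr1222 was at -0.06 without wild-type replicate 3 and -0.89 without homozygous replicate 3, Olfr1228 at -0.11 without homozygous replicate 4 and -0.55 without homozygous replicate 3, and Olfr1260 at -0.26 without homozygous replicate 2. Olfr1015 had 52, 34 and 62 counts in wild type, 34, 48, 36 and 31 in heterozygous and 35, 27, 44 and 26 in homozygous libraries. Olfr1140 showed how far 1 library could set a mean, with 33, 18 and 70 counts in wild type, 43, 36, 24 and 15 in heterozygous and 35, 17, 35 and 25 in homozygous libraries. The 70 counts of wild-type replicate 3 were the highest of all, and without this library the log2 fold change of Olfr1140 turned from -0.50 to 0.09 and that of Olfr1226 from -0.35 to 0.28.

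**Figure D2:**
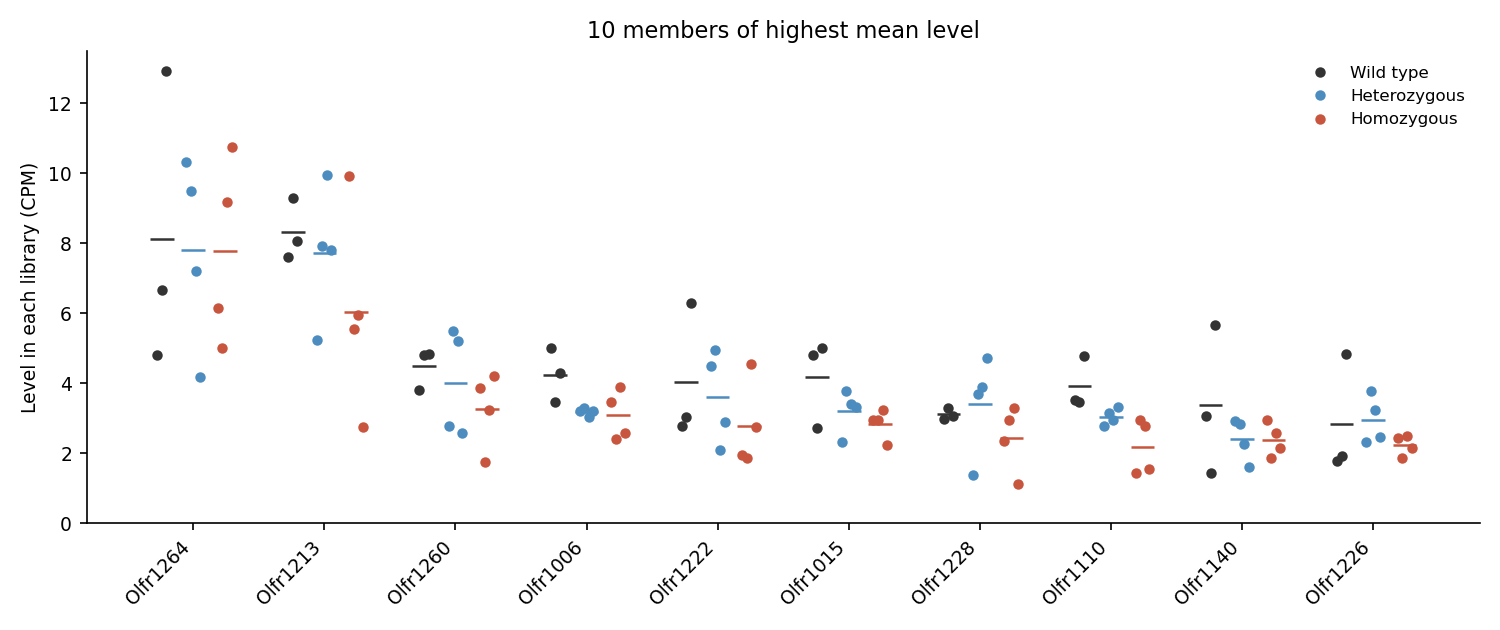
Level (CPM, y axis) of the 10 members of highest mean level (x axis) in each library, coloured by genotype, with short lines at the genotype means (n = 3, 4 and 4). Genotypes overlap for Olfr1264, whose means are 8.13, 7.80 and 7.77 CPM, while for Olfr1110 both mutant genotypes lie below the wild-type libraries.

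To ask whether deletion of the Taar cluster altered the cluster as a whole, its share of all OR counts was taken in each library, which removes differences in the amount of OR transcript. The cluster had 2305 of 13567, 2323 of 13730 and 3478 of 16784 OR counts in wild type. These are shares of 17.0% (95% Wilson interval 16.4 to 17.6), 16.9% (16.3 to 17.6) and 20.7% (20.1 to 21.3). Wild-type replicate 3 thus stood above the other two by far more than the counting error, which is all that these intervals cover.

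In the heterozygous libraries, 2555 of 16736, 2961 of 16356, 2215 of 12601 and 1570 of 8419 OR counts fell on the cluster, or 15.3%, 18.1%, 17.6% and 18.6%. In the homozygous libraries there were 2186 of 12231, 1236 of 7324, 2568 of 15958 and 1677 of 12593, or 17.9%, 16.9%, 16.1% and 13.3% (12.7 to 13.9 for the last). The mean share was 18.2% ± 2.18 in wild type, 17.4% ± 1.49 in heterozygous and 16.0% ± 1.96 in homozygous libraries (SD, n = 3, 4 and 4). The homozygous mean was thus 2.17 percentage points below wild type, about the size of 1 SD, and 3 of 4 homozygous libraries lay below every wild-type library, homozygous replicate 2 by under 0.1 points. As the members were chosen with results known, no p is given for these sums.

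The 2 extreme libraries carried much of this difference. Without wild-type replicate 3 the homozygous mean was 5.40% below wild type in relative terms, against 11.9% with all libraries, and without homozygous replicate 4 it was 6.94% below. The heterozygous mean turned from 4.46% below wild type to 2.62% above it without wild-type replicate 3, and was 0.55% below without heterozygous replicate 1. The homozygous mean was 7.81% below the heterozygous one, and 2.60% below without homozygous replicate 4. Both extreme libraries belong to set 2. Within set 1 the mean share was 17.0% in wild type (n = 2), 18.1% in heterozygous (n = 2) and 17.4% in homozygous libraries (n = 2), so that the homozygous mean was 2.48% above wild type. Within set 2 it was 20.7% (n = 1), 16.7% (n = 2) and 14.7% (n = 2), which is 29.0% below. The lower homozygous share was therefore not found in both sets. With the library sets of the 500 most variable genes, which divide the libraries differently, it was 0.16% above wild type in 1 set (homozygous n = 3, wild type n = 1) and 29.4% below in the other (homozygous n = 1, wild type n = 2).

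The summed level of the members gave a larger difference, because the other OR genes were also lower. The sum was 214, 186 and 281 CPM in wild type, 174, 232, 209.9 and 168 in heterozygous and 184, 135, 188 and 144 in homozygous libraries. Homozygous replicate 2 had a TMM factor of 0.756, which raises its CPM, against 1.006 to 1.055 in the other libraries. Unscaled, its cluster counts were 0.0102% of the library total, against 0.0145% to 0.0194% in the other homozygous libraries. Homozygous replicate 3 exceeded wild-type replicate 2, and the other 3 homozygous sums were below the lowest wild-type sum. The means were 227 ± 48.6, 196 ± 30.5 and 163 ± 27.2 CPM. This is 28.2% lower in homozygous and 13.6% lower in heterozygous than in wild-type libraries, and 18.5% and 1.97% lower without wild-type replicate 3. The homozygous mean was 16.9% below the heterozygous one. Within set 1 the homozygous mean was 20.3% below wild type, and within set 2 40.8% below.

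**Figure D3:**
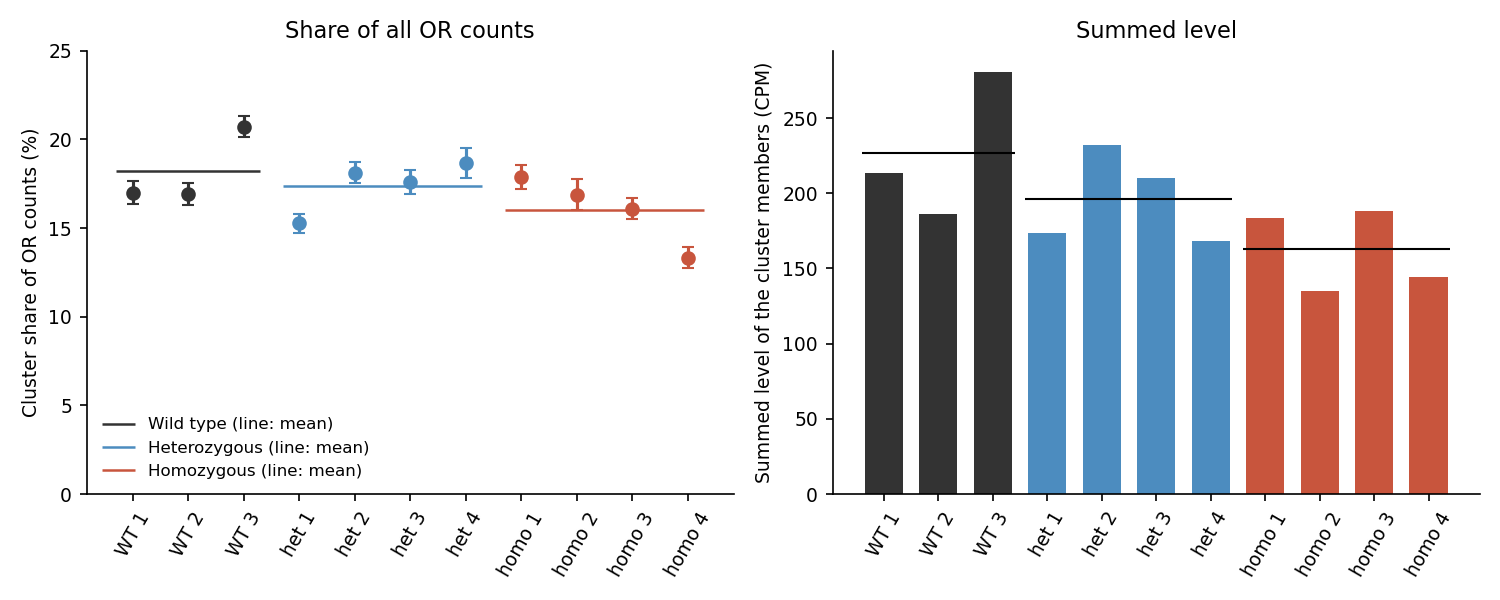
Left, share of all OR counts that fell on the 241 members (percent, y axis) in each library (x axis), with 95% Wilson intervals as bars and genotype means as lines. Right, their summed level in CPM, with genotype means as black lines. Wild-type replicate 3 has the highest share (20.7%) and sum (281 CPM), and homozygous replicate 4 the lowest share (13.3%).

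Other OR genes were set beside these values to show how far the cluster differed from them. The sum over all other OR genes was 1011 ± 84.7 CPM in wild type, 933 ± 138 in heterozygous and 858 ± 141 in homozygous libraries, 15.1% lower in the homozygous mean. The homozygous mean was 11.9% lower for the OR genes of chromosome 7 (236 symbols), 28.8% lower for those of chromosome 9 (135 symbols) and 19.5% lower for the 48 of chromosome 2 outside the numbered range. The percent difference of the chromosome 2 cluster was thus close to that of chromosome 9, where each of the 4 homozygous values was below the lowest wild-type value. In the cluster, block 1 was 27.9% and block 2 30.8% lower. With the 20 chromosome 2 neighbours included the difference was 27.5%, without the 10 leading members 29.1%, and without the 51 members above 95% identity 27.8%. The values therefore depended little on where the cluster ends, on its leading members or on its near-identical ones.

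Markers of cell types in the tissue also differed between libraries. Omp, which encodes a protein of mature OSNs, had 737, 599 and 349 CPM in wild type, 533, 508, 552 and 414 in heterozygous and 451, 346, 494 and 524 in homozygous libraries. Wild-type replicate 3 had the highest cluster sum but among the lowest Omp levels, with 80.5 cluster CPM per 100 CPM of Omp against 27.5 to 45.7 in the other 10 libraries. The log2 fold change of Omp between homozygous and wild type was -0.31 (SE 0.24, edgeR unadjusted p = 0.22). All 7 mature OSN markers had a lower homozygous than wild-type mean with 0 at an unadjusted p under 0.05, and their sum was 1254 to 2211 CPM in wild type and 1215 to 1556 CPM in homozygous libraries. All 4 sustentacular markers (supporting cells of the epithelium) had a lower homozygous estimate as well, with a median log2 fold change of -0.30 beside -0.28 for the mature OSN markers, and summed to 1002 to 1706 CPM in wild type and 846 to 1403 CPM in homozygous libraries. Of 5 immature OSN markers 1 was lower (median 0.04), with sums of 1053 to 1463 CPM in wild type and 1206 to 1472 CPM in homozygous libraries. None of these had an unadjusted p under 0.05 in the edgeR fit. Of 3 horizontal basal cell markers 2 were lower (median -0.29), and of 3 respiratory ciliated and 3 immune markers 1 each was. All 3 vomeronasal genes tested, of 332 listed, were lower (median -0.32), 1 of them at an unadjusted p under 0.05 in that fit. The part of these cell types in the lower cluster sum was not tested. Skeletal muscle markers (Acta1, Ckm, Myh3, Myh8, Tnnt3) summed to 2.87 to 43.5 CPM in wild type, 11.4 to 1286 in heterozygous and 13.0 to 583 in homozygous libraries, and 3 of 5 were higher in homozygous than in wild-type libraries at an unadjusted p under 0.05 (median log2 fold change 3.68). Between heterozygous and wild type all 5 were higher at that level (median 4.58), with 0 past the adjusted threshold in either comparison. Their part in the cluster values was not tested. Wild-type replicate 3 and homozygous replicate 4, at the extremes of the cluster share, had 11.5 and 13.0 CPM of these markers. Such low values were not confined to these libraries. Wild-type replicate 1 was at 2.87 CPM, and heterozygous replicates 1 and 3 were at 11.4 and 11.9 CPM.

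Single members were tested in an edgeR quasi-likelihood fit across all genes with TMM scaling, in which the 3 genotypes of all 11 libraries shared 1 estimate of the spread and p-values were adjusted over all 16574 genes tested (Benjamini-Hochberg, threshold 0.05). A filter on low counts was passed by 106 of the 241 members and 462 other OR genes. Between homozygous and wild type 0 members passed the threshold, and 0 of all genes did (0.0%), the lowest adjusted p over all genes being 0.173. The 4 olfactory Taar genes tested, which the homozygous mice lack, did not pass it either, at log2 fold changes of -7.41 to -5.93. The threshold thus missed a known change, and 0 members past it does not show that members were unchanged. At an unadjusted p under 0.05 were 12 of the 106 members (11.3%), all lower, against 500 of all genes (3.02%), of which 200 were lower (1.21%), and 23 of the other OR genes (4.98%). The OR genes of chromosome 9 had a share as high as the members, 7 of 50 tested (14%), with a median log2 fold change of -0.41. DESeq2 gave 0 members past the adjusted threshold as well, with 13 of 240 members (5.42%) at an unadjusted p under 0.05, beside 2.78% of 862 other OR genes and 2.93% of all 21582 genes with a p. A lower homozygous than wild-type estimate was found for 97 of the 106 members, with a median log2 fold change of -0.53. This median was -0.25 for other OR genes and 0.02 over all genes. As a member that passed the filter through wild-type counts alone was bound to differ, the fit was repeated without the filter. Of 240 members with a count, 202 had a lower estimate with a median of -0.53, and of 862 other OR genes 606 had with a median of -0.30. For the 132 OR genes of chromosome 9 with a count this median was -0.52, next to that of the members, and 15 of them (11.4%) had an unadjusted p under 0.05, against 20 of 240 members (8.33%). Same-numbered wild-type and homozygous libraries deviated together, and the replicate number was therefore also entered as a block. Each same-numbered pair of wild-type and homozygous libraries lay within 1 library set, so that number and set cannot be told apart here. In a fit of these 7 libraries alone, with 2 residual degrees of freedom and no partner for homozygous replicate 4, edgeR put 10 of 83 members (12%), 25 of 401 other OR genes (6.23%) and 1020 of all 16163 genes (6.31%) at an unadjusted p under 0.05, and 39 genes but 0 members past the adjusted threshold. Fitted over all 11 libraries with the block, these were 7 of 106 members (6.60%), 6 of them lower and 1 higher (Olfr1133, named after its value was seen, with a log2 fold change of 0.64 without the block), 10 of 462 other OR genes (2.16%) and 286 genes in all (1.73%), with 0 adjusted.

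Scaled to library size, every homozygous library was below every wild-type library for 17 of the 106 members (16.0%), against 2.48% of all genes tested, 9.09% of the other OR genes and 22% of the 50 tested OR genes of chromosome 9. Without the filter these shares were 24 of 240 members (10%), 65 of 862 other OR genes (7.54%), 22 of 132 OR genes of chromosome 9 (16.7%) and 491 of all 21601 genes (2.27%). The reverse is each homozygous level above the highest wild-type level. With the filter it was found for 0 members, 0 other OR genes and 416 of 16574 genes. Without the filter it was found for 0 members, 3 of 862 other OR genes and 501 of all 21601 genes. Without wild-type replicate 3, the median over the members tested was -0.30, beside -0.20 for the other OR genes, so that the medians lay closer together. An unadjusted p under 0.05 was then found for 3 of 117 members (2.56%), a lower share than the 27 of 493 other OR genes (5.48%) and the 714 of 16788 genes in all (4.25%), whereas with this library the members had the higher share. In block 1, 86 of 95 tested members had a lower estimate (median -0.52), and in block 2 all 11 had (median -0.59).

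**Figure D4:**
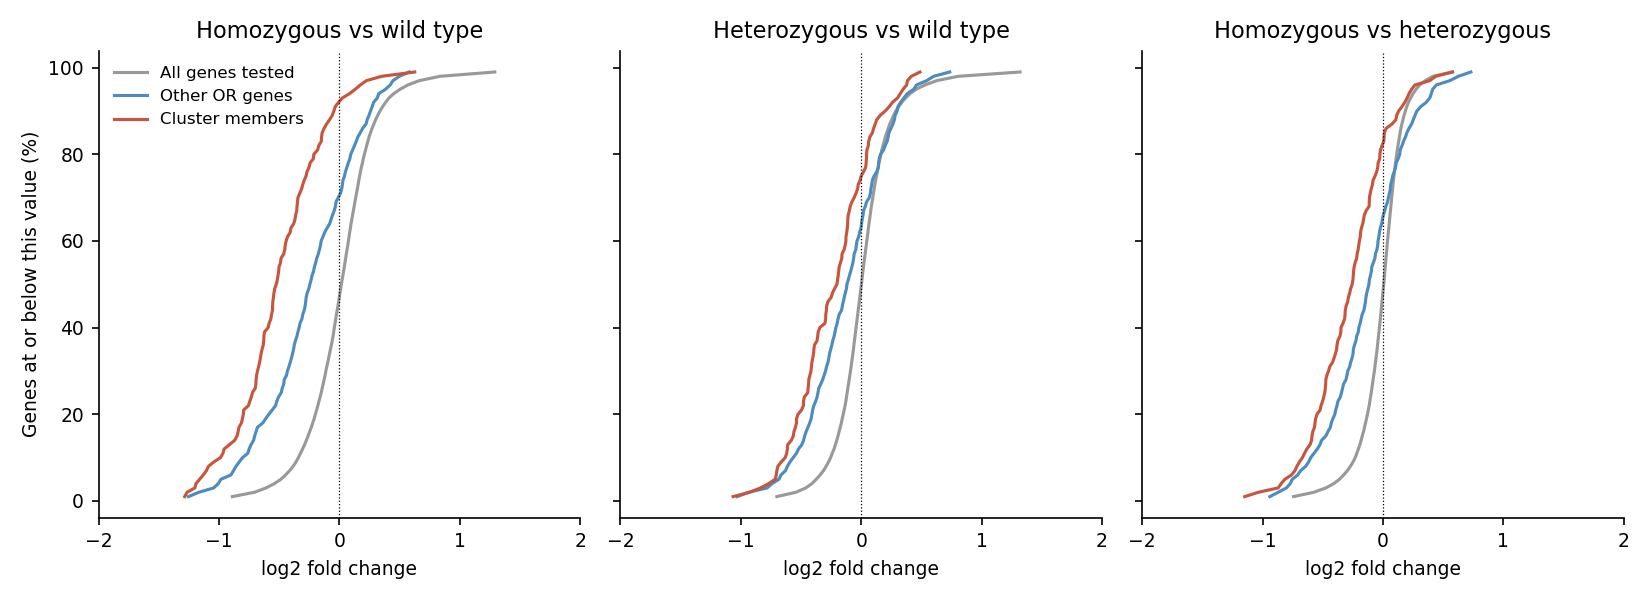
Percentiles (y axis, percent of genes) of the log2 fold change (x axis) of the 106 tested members, the 462 tested other OR genes and all 16574 tested genes in each comparison. Members lie furthest to the left, with a median of -0.53 between homozygous and wild type, -0.20 between heterozygous and wild type and -0.26 between homozygous and heterozygous libraries.

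The member with the lowest p was Olfr1252 (chr2:89719575-89725012, minus strand). It had 16, 9 and 12 counts in wild type, 13, 9, 10 and 5 in heterozygous and 4, 1, 4 and 7 in homozygous libraries, or 1.06 ± 0.39, 0.77 ± 0.19 and 0.34 ± 0.20 CPM. The homozygous counts were all below the wild-type ones, with a log2 fold change of -1.59 (SE 0.47, edgeR unadjusted p = 0.0057, adjusted p = 0.996). Olfr1252 is 96.7% identical to Olfr1250 in its coding sequence, and its counts are thus among the uncertain ones. It was also the member of lowest p between homozygous and heterozygous libraries (log2 fold change -1.15, SE 0.46, unadjusted p = 0.027 by edgeR), a comparison that shares the homozygous libraries.

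Olfr1294, in block 2 (chr2:111536530-111540291, minus strand), had 14, 11 and 24 counts in wild type, 15, 12, 7 and 8 in heterozygous and 7, 5, 9 and 9 in homozygous libraries. Its level was 1.37 ± 0.53, 0.87 ± 0.15 and 0.64 ± 0.10 CPM, with a homozygous to wild-type log2 fold change of -1.08 (SE 0.35, edgeR unadjusted p = 0.0099). Olfr1209 (chr2:88904942-88915157, minus strand) had 21, 27 and 13 counts in wild type, 14, 12, 18 and 10 in heterozygous and 8, 5, 12 and 12 in homozygous libraries. The homozygous to wild-type log2 fold change was -1.11 (SE 0.38, edgeR unadjusted p = 0.012). For both genes the heterozygous mean lay between the other two. The remaining 9 members at an unadjusted p under 0.05 were Olfr1110, Olfr1270, Olfr1297, Olfr1056, Olfr1193, Olfr1122, Olfr1208, Olfr1046 and Olfr1234, with log2 fold changes from -1.29 to -0.68. None reached an adjusted p below 0.996, and 9 of the 12 members had at most 28 counts in any library.

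**Figure D5:**
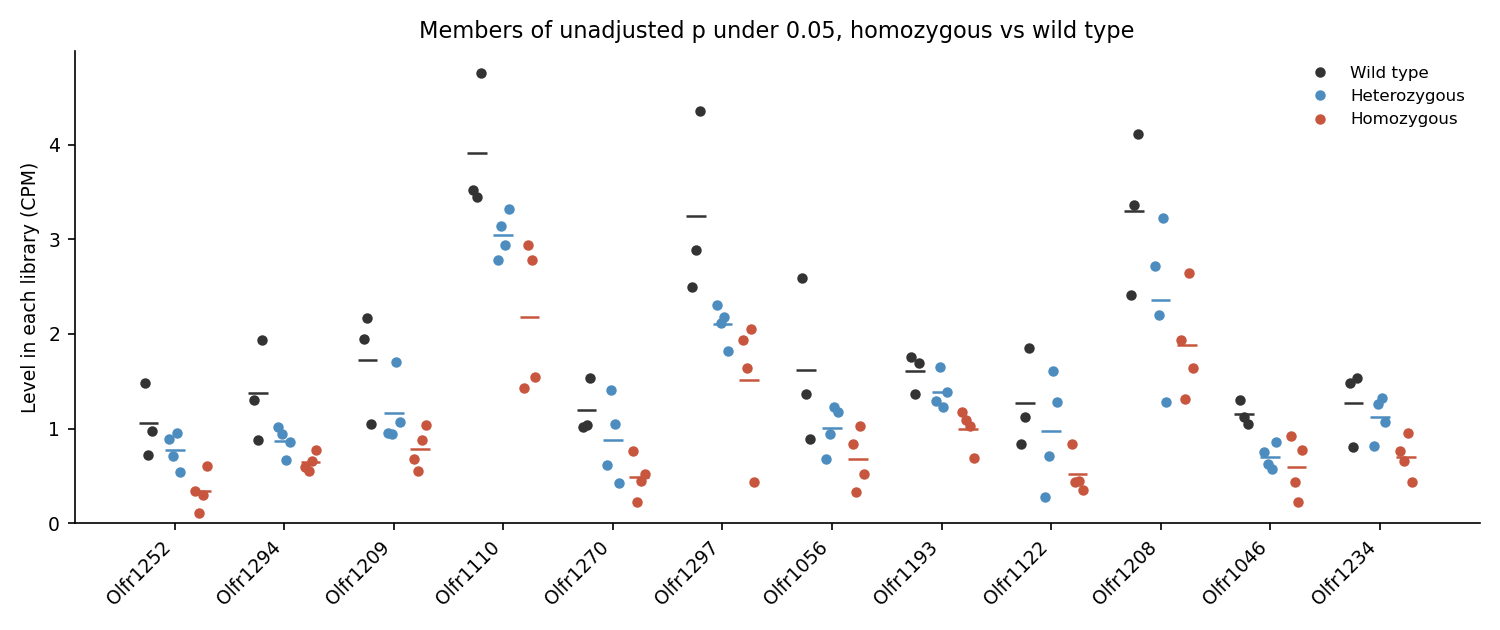
Level (CPM, y axis) in each library of the 12 members with an unadjusted p under 0.05 between homozygous and wild type (x axis, ordered by p), coloured by genotype, with short lines at the genotype means (n = 3, 4 and 4). The members were chosen by that p, and Olfr1252 means are 1.06, 0.77 and 0.34 CPM.

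Some members had estimates in the other direction. Between homozygous and wild type, 9 of the 106 tested members had a higher estimate, and Olfr1107 had the highest. Its counts were 4, 3 and 7 in wild type, 14, 12, 6 and 8 in heterozygous and 17, 6, 7 and 4 in homozygous libraries. The log2 fold change was 0.89 between homozygous and wild type (SE 0.53, edgeR unadjusted p = 0.12) and 1.07 between heterozygous and wild type (SE 0.53, unadjusted p = 0.066). In CPM, every heterozygous library lay above every wild-type one, but heterozygous replicate 3 (0.569) only just exceeded wild-type replicate 3 (0.565). Before scaling, these libraries had 6 and 7 counts. Homozygous replicate 1 alone gave much of the homozygous mean of 0.74 ± 0.48 CPM.

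Deletion of 1 copy was examined in the same way. Between heterozygous and wild type 0 members and 0 genes in all (0.0%) passed the adjusted threshold, and 1 of 106 members had an unadjusted p under 0.05, against 372 of all genes (2.24%). The median log2 fold change was -0.20 over the members and -0.12 over the other OR genes, with 79 of 106 members lower, and it was -0.24 for the 50 OR genes of chromosome 9. Without wild-type replicate 3 these medians were -0.029 and -0.076, with 62 of 117 members lower. Without the filter 159 of 240 members were lower (median -0.18). The member in question was Olfr1080, with 17, 19 and 26 counts in wild type, 13, 8, 14 and 4 in heterozygous and 18, 8, 14 and 12 in homozygous libraries. Its heterozygous level was the lowest of the 3 genotypes (0.82 ± 0.39 CPM, against 1.73 ± 0.32 in wild type and 1.11 ± 0.28 in homozygous), with a log2 fold change of -1.07 (SE 0.38, edgeR unadjusted p = 0.015, and not past the threshold after adjustment). Its sequence is shown above beside that of Olfr1082, from which reads of the coding sequence can be told apart only in part.

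Olfr1271, second by p, had 10, 5 and 22 counts in wild type, 4, 9, 2 and 5 in heterozygous and 6, 3, 13 and 11 in homozygous libraries. The wild-type libraries alone spread from 5 to 22 counts, and the heterozygous to wild-type log2 fold change was -1.27 (SE 0.59, edgeR unadjusted p = 0.054), and -0.62 without wild-type replicate 3.

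Between homozygous and heterozygous libraries 0 members and 0 genes in all (0.0%) passed the adjusted threshold. The 4 olfactory Taar genes tested again did not pass it, at log2 fold changes of -6.62 to -5.36. An unadjusted p under 0.05 was found for 1 of 106 members, against 93 of all genes (0.561%). Of the members, 87 had a lower homozygous estimate, with a median of -0.26, beside -0.12 for the other OR genes and -0.30 for those of chromosome 9, and without the filter 182 of 240 (median -0.27). The value for the other OR genes rested on single libraries and was -0.0019 without homozygous replicate 2, -0.040 without heterozygous replicate 2 and -0.24 without heterozygous replicate 4. After Olfr1252, the lowest p were those of Olfr1218, with 4, 2 and 15 counts in wild type, 14, 14, 2 and 6 in heterozygous and 2, 2, 3 and 5 in homozygous libraries (log2 fold change -1.47, SE 0.67, edgeR unadjusted p = 0.050), and of Olfr1087, with 25, 17 and 29, then 26, 26, 19 and 26, then 23, 7, 19 and 12 counts (-0.69, SE 0.34, unadjusted p = 0.064). Olfr1218 was highest in 3 libraries of set 2, wild-type replicate 3 and heterozygous replicates 1 and 2, whereas homozygous replicates 3 and 4 of that set were low. The 3 comparisons share libraries with each other, so that their values are not independent of one another.

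Members varied between libraries of 1 genotype about as much as other OR genes. The median biological coefficient of variation in the edgeR fit was 33.0% over the tested members, 31.7% over the other OR genes and 22.7% over all genes. Among the leading members it ran from 21.1% for Olfr1006 to 38.2% for Olfr1222. The standard errors of the homozygous to wild-type log2 fold changes of the named members were 0.24 to 0.73, beside a member median of -0.53.

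Genes that act with ORs were read from the same fit. The signalling and trafficking list (Gnal, Gng13, Adcy3, Cnga2, Cnga4, Cngb1, Ano2, Slc24a4, Rtp1, Rtp2, Reep1, Omp and Ric8b) includes the olfactory G protein, adenylate cyclase and cation channel, and chaperones that bring ORs to the cell surface. Of its 13 genes, 12 had a lower homozygous than wild-type estimate (median log2 fold change -0.28, range -0.40 to 0.13), and 0 had an unadjusted p under 0.05. The receptor choice list (Lhx2, Ldb1, Ebf1, Ebf2, Ebf3, Ebf4, Emx2, Kdm1a, Lbr, Atf5, Eif2ak3, Setdb1, Ehmt1 and Ehmt2) holds transcription factors that bind OR promoters and enhancers and regulators of chromatin and of the feedback from a chosen OR. Of its 14 genes, 4 had a lower estimate (median 0.04, range -0.15 to 0.43), and again 0 had an unadjusted p under 0.05.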

How the data were processed

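Total RNA of whole MOE was polyA-selected and sequenced from a directional library kit. According to the study's methods and the submitters' processing notes, reads were trimmed with Trimmomatic (0.36), aligned with HISAT2 (2.1.0) and assigned to genes with featureCounts (Subread 1.6.2), and the deposited values are the authors' whole-number counts per gene symbol, not normalized. Not given in the sources used here are the annotation, how strand was set and how reads matching several genes were counted, which bears on near-identical ORs. A second table, of counts divided by a size factor (DESeq2 1.20.0), was not used. Library totals were 9239866 to 14632525 counts, and intervals cover counting error only.

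The 241 members and all gene lists were chosen with earlier results of these data known. Counts were fitted in R 4.3.3 with edgeR 4.0.16 (TMM, filterByExpr by genotype, quasi-likelihood F-test, Benjamini-Hochberg over 16574 genes). The fit was also run on simulated counts with known changes. These were larger than the member median and lay in genes of higher counts than most members. The split of the libraries was not simulated. The check thus does not show whether changes like those of the members would be found. Levels are TMM-scaled CPM. Positions and lengths came from GENCODE M21 (mm10) and RefSeq (GRCm38.p6), and identities from BLAST+ 2.17.0. Named members were the 10 of highest mean CPM, the 3 of highest level per kb of exon and the 3 of lowest p in each comparison, with Omp. Same-numbered wild-type and homozygous libraries correlated in their deviations from the group means (3 of 3 pairs above 0.1, 0.33 to 0.42), as did 3 of 9 pairs of different number, and 0 of 7 same-numbered pairs with a heterozygous library did. The 3 pairs of different number that correlated lay each within a library set, and so did the same-numbered wild-type and homozygous pairs. The pairing thus comes from the data and not from the labels, and it cannot be told apart from the sets. Alternatives were DESeq2 1.42.0, RLE scaling, no filter, only the genotypes compared, a replicate block, library sets as a covariate and leaving out each library.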

Additional observations from a re-analysis of the deposited data

Results flagged for a closer look

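The level of Olfr1209 in the heterozygous libraries stood out in 1 of 4. Heterozygous replicate 3 had 1.71 CPM, against 0.95, 0.94 and 1.07 CPM in replicates 1, 2 and 4, and the gap to the next library took 0.831 of the whole range, just above Dixon's 95% critical value for 4 samples. This was 1 of 42 such checks of members and sums, and chance alone gives about 1 in 20.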

How the results depend on the processing

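The median log2 fold change of the members kept its sign in all 19 alternatives of the fit, in each comparison they cover. Leaving out 1 library at a time, it ranged from -0.63 to -0.30 between homozygous and wild type, from -0.36 to -0.029 between heterozygous and wild type, and from -0.34 to -0.18 between homozygous and heterozygous libraries. For the other OR genes these medians were -0.32 to -0.15, -0.20 to -0.015 and -0.24 to -0.0019. The value of the members nearest 0 in the first 2 comparisons was that without wild-type replicate 3. The number of members at an unadjusted p under 0.05 was 3 to 17 (2.56% to 13.8%), 1 to 5 (0.971% to 4.07%) and 0 to 4 (0% to 4%) in the same order. That of all genes was 317 to 721 (1.92% to 4.36%), 229 to 614 (1.36% to 3.66%) and 53 to 180 (0.321% to 1.09%). The extremes of members and of all genes did not always come from the same library left out. Without wild-type replicate 3 there were 3 members but 714 genes (4.25%) between homozygous and wild type. The cluster share, as a log2 ratio, was -0.24 to -0.080, -0.12 to 0.037 and -0.18 to -0.038, and changed direction between heterozygous and wild type without wild-type replicate 3. The summed CPM was -0.60 to -0.30, -0.33 to -0.029 and -0.34 to -0.18. The log2 fold change between homozygous and wild type ranged from -0.33 to 0.44 for Olfr1264, from -0.87 to 0.093 for Olfr1140 and from -0.59 to 0.28 for Olfr1226, each highest without wild-type replicate 3, and Olfr1264 was also above 0 without homozygous replicate 1 (0.035) or 2 (0.084).

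DESeq2 called 8, 3 and 2 genes past the adjusted threshold in the 3 comparisons, against 0 in edgeR, and 0 of them were members. It put 13, 3 and 3 of 240 members (5.42%, 1.25% and 1.25%) at an unadjusted p under 0.05, beside 2.93%, 2.28% and 0.556% of all genes. Without the filter there were 20, 7 and 7 such members of 240 (8.33%, 2.92% and 2.92%), beside 639, 518 and 206 of all 21601 genes (2.96%, 2.40% and 0.954%). RLE scaling gave 2 of 106 members (1.89%, all genes 0.561%) between homozygous and heterozygous libraries, and fits to the 2 genotypes alone gave 0 of 69 there (all genes 0.412%) and 2 of 100 (2%, all genes 1.71%), 1 of them lower, between heterozygous and wild type. The library sets as a covariate gave 956 genes (5.77%) and 10 members (9.43%) between homozygous and wild type, with Olfr1264 at 0.12. Sets over all genes, an alternative chosen after seeing the data, gave 1132, 754 and 227 genes (6.83%, 4.55% and 1.37%), with 18, 3 and 3 members (17.0%, 2.83% and 2.83%). Another such alternative, the cluster without Olfr1264 and Olfr1213, had a log2 ratio between homozygous and wild type of -0.20 in share and -0.50 in CPM.

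Same-numbered libraries correlated between wild type and homozygous only, where each such pair also lay within 1 library set. For heterozygous libraries the 7 same-number correlations were -0.58 to -0.19, and 0 libraries of any genotype were nearest to their own number. With the replicate block in the fit of all libraries, 7 members (6 lower, 1 higher) and 286 genes were at an unadjusted p under 0.05 between homozygous and wild type, 239 genes between heterozygous and wild type and 43 between homozygous and heterozygous libraries, and Olfr1264 was at 0.0060. The block in a fit of wild-type and homozygous libraries alone, chosen after seeing the data, gave 39 genes past the adjusted threshold, 0 of them members, and 1020 genes and 10 members at an unadjusted p under 0.05. The block changed no other call past the adjusted threshold. The cause of these changes was not tested. Median member counts of 71 over 11 libraries limit what can be said of single members.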
